A study of Mus musculus with 6 samples.

Results

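The CCN family and the genes around the transcriptional coactivator YAP were followed in endothelial cell cultures of the cochlea. The rows were chosen by gene symbol, as 10 genes of the 24421 in the deposited table: the CCN genes *Nov*, *Ctgf*, *Cyr61*, *Wisp1* and *Wisp2*, the YAP target genes *Ankrd1* and *Amotl2*, the coactivators *Yap1* and *Wwtr1*, and their DNA-binding partner *Tead1*. The current symbols of the CCN genes are *Ccn3*, *Ccn2*, *Ccn1*, *Ccn4* and *Ccn5*, in the order given. All 10 were among the 13479 genes with enough counts to be tested. RNA came from primary endothelial cells of the stria vascularis, the secretory and vascularized wall tissue of the cochlea, of mice on postnatal days 10 to 12. By the methods, the stria vascularis was taken out for culture together with the spiral ligament, which also lies in the cochlear wall. The study set out to find expression differences that go with a leakier endothelial layer, and compared 3 *Nhe6*-knockout cultures with 3 wildtype cultures, with no treatment in either group. *Nhe6*-knockout mice carry a targeted gene disruption. The labels give C57BL/6N as the background of both genotypes, whereas the methods describe a backcross to C57BL/6J. Sorted cells of at least 6 mice were pooled for a culture, so a culture stands for a pool of mice and not for 1 animal.

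CCN proteins are small secreted proteins of the extracellular matrix that bind integrins, the low density lipoprotein receptor-related proteins and heparan sulfate, and through them act on adhesion, migration and matrix production. YAP and its relative TAZ, the product of *Wwtr1*, enter the nucleus when the kinases of the Hippo pathway are inactive or when cells are stretched or sparse, and there bind TEAD transcription factors, since neither binds DNA by itself. *Ctgf*, *Cyr61*, *Ankrd1* and *Amotl2* are among the target genes most often used to read this activity. In blood vessels YAP and TAZ take part in sprouting and barrier formation, and AMOTL2 links cell junctions to the actin cytoskeleton.

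The libraries held 25587097 to 29126232 reads on genes. Normalized counts are counts scaled by edgeR's TMM factors to the mean library size. Wildtype replicate 2 stood apart, at 87.8 on the first principal component against -22.4 to -6.44 in the other libraries, and several results below turn on it. *Nhe6*-knockout replicates 1 and 2 were more alike than any other pair, with a chi-square of 5.12 per gene against 96.5 to 428, which is still beyond sampling noise, and were kept as 2 cultures. The labels do not say whether the cultures came from separate dissections, so p-values measure only the spread between these libraries. The endothelial markers did not all bear out the label. Of 15 listed, 9 were tested. *Emcn* had 10458 to 18730 reads in a library but 397 in wildtype replicate 2. *Eng* had 840 to 5467 reads, and *Cdh5* had 2566 to 5039 in wildtype and 189 to 250 in *Nhe6*-knockout cultures. *Pecam1* had at most 8 reads in a library, and *Cldn5* and *Sox17* had 0 reads in all. Counts of 10 fibroblast markers were in contrast high, with a sum of 9698 to 14508 CPM (counts scaled for library size) against 580 to 941 for the endothelial list. These sums were not scaled by exon length and weigh long, abundant genes most. *Col1a2* alone had 81635 to 180542 reads in a library, so the lists can be compared only roughly. In wildtype replicate 2 the fibroblast sum was 14508 against 9698 to 10797 in the other libraries, the mural sum was 1280.1 against 590.3 to 884, and the macrophage sum was 3.33 against 45.4 to 112. Of the macrophage markers, 9 of 10 were at their lowest of the 6 libraries there and 0 at their highest. The fibroblast and mural lists did not move as a whole. Of the fibroblast markers, 4 (*Col1a1*, *Col1a2*, *Fn1* and *Thy1*) were at their highest of the 6 libraries there and 5 (*Col3a1*, *Dcn*, *Lum*, *Pdgfra* and *Fbln1*) at their lowest. Of 11 mural markers, 4 (*Acta2*, *Tagln*, *Cspg4* and *Cnn1*) were at their highest and 4 (*Pdgfrb*, *Rgs5*, *Des* and *Abcc9*) at their lowest. The 15 endothelial markers were split as well, with 7, among them *Cdh5*, at their highest and 4 (*Vwf*, *Emcn*, *Eng* and *Egfl7*) at their lowest. The sum of 12 cell cycle genes was 266 to 481 CPM in *Nhe6*-knockout and 80.0 to 119 in wildtype cultures. All *Nhe6*-knockout cultures lay above all wildtype cultures for 11 of 12 cell cycle genes, 5 of 10 mural markers and 3 of 10 fibroblast markers tested, where 10.3% of all genes did so. Of the 9 endothelial markers tested, 0 lay above and 2, *Cdh5* and *Flt1*, lay below, where 9.57% of all genes did so, and edgeR called *Cdh5*, the gene of VE-cadherin. *Flt1*, a VEGF receptor, had 578, 561 and 378 normalized counts in *Nhe6*-knockout and 919.8, 3174 and 1149.7 in wildtype cultures. The part of these shifts in the results below was not tested, and in bulk RNA fewer cells of a type cannot be told apart from less RNA per cell.

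TEAD factors recognise the hexamer GGAATG, read as CATTCC on the opposite strand, so the promoters were read for it. The sites are shown because they mark the recognition letters of the pathway in its own genes, where a sequence was at hand. The set of RefSeq promoter sequences used here (GRCm38.p6) covered 5 of the 10 genes. All 5 held the hexamer on one of the strands within the 250 bases before a transcription start. The promoters of *Nov*, *Ctgf*, *Wisp1*, *Wisp2* and *Tead1* were not in that set and were not examined, so nothing can be said about sites there. Among all 27025 genes with such a window, 14.4% held it. The capitals mark the hexamer within 30 bases, written from 5′ to 3′ along the strand of the gene:
*Cyr61*, chr3:145650071-145650100, minus strand: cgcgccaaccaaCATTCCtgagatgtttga
*Ankrd1*, far site, chr19:36120037-36120066, minus strand: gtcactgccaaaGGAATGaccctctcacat
*Ankrd1*, near site, chr19:36119950-36119979, minus strand: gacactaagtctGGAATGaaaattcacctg
*Amotl2*, chr9:102717727-102717756, plus strand: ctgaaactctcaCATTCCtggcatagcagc
*Yap1*, chr9:8004720-8004749, minus strand: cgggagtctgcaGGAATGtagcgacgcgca
*Wwtr1*, chr3:57576029-57576058, minus strand: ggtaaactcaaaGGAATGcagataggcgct

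The first base of the hexamer lay 103 bases before the start of *Cyr61*, 65 before that of *Amotl2*, 141 before that of *Yap1*, and 136 or 170 before the 2 starts of *Wwtr1*. *Ankrd1* had 2 copies, 210 and 123 bases before its start, and 1.02% of all windows held 2 or more. The GENCODE annotation counts the *Ankrd1* window as exon of a transcript that begins further upstream, while the windows of *Cyr61* and of the first *Wwtr1* start held no annotated exon. The whole window of *Cyr61*, the CCN gene with the highest level, is given with the hexamer in capitals.
*Cyr61* promoter, chr3:145649986-145650235, minus strand: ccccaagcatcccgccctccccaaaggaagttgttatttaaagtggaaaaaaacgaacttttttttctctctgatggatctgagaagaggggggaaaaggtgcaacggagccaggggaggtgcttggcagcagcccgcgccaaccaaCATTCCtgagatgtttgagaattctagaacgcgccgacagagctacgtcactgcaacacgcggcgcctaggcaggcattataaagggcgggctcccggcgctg

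In the wider pathway only genes with a window in that set were counted. The hexamer was in the window of 6 of 15 genes of a list of YAP and TAZ targets. It was in 6 of 19 genes of the Hippo kinases and scaffolds, and 4 of 6 of the other TEAD and vestigial-like factors. The 6 of the target list included *Cyr61*, *Ankrd1* and *Amotl2*. A match describes letters and not a bound site, and no binding was measured in these cultures.

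None of the 10 genes passed the test between the genotypes. In edgeR's quasi-likelihood fit (two-sided test, Benjamini-Hochberg adjustment over all genes tested, threshold 0.05), 0 of the 10 were called, against 0.0668% of all genes. Log2 fold changes, for *Nhe6*-knockout relative to wildtype, were above 0 for 4 and below 0 for 6, with a median of -0.21 against -0.02 over all genes tested. An unadjusted p under 0.05 was found for *Nov*, lower, and *Ankrd1*, higher, which is 2 of 10 against 11.8% of all genes. All *Nhe6*-knockout cultures lay above all wildtype cultures for 2 genes, *Ankrd1* and *Yap1*, where 10.3% of all genes did so, and all lay below for *Nov*, where 9.57% did so. With DESeq2 1 of the 10, *Nov*, had an adjusted p under 0.05, against 3.99% of all genes. Without wildtype replicate 2, edgeR also called *Nov* alone, against 2.88% of all genes, and the median of the 10 was 0.24. With limma-voom 0 of the 10 were called. For 10 genes these counts of 0 to 2 are near the shares over all genes and are not a result about the family or the pathway.

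**Figure D1:**
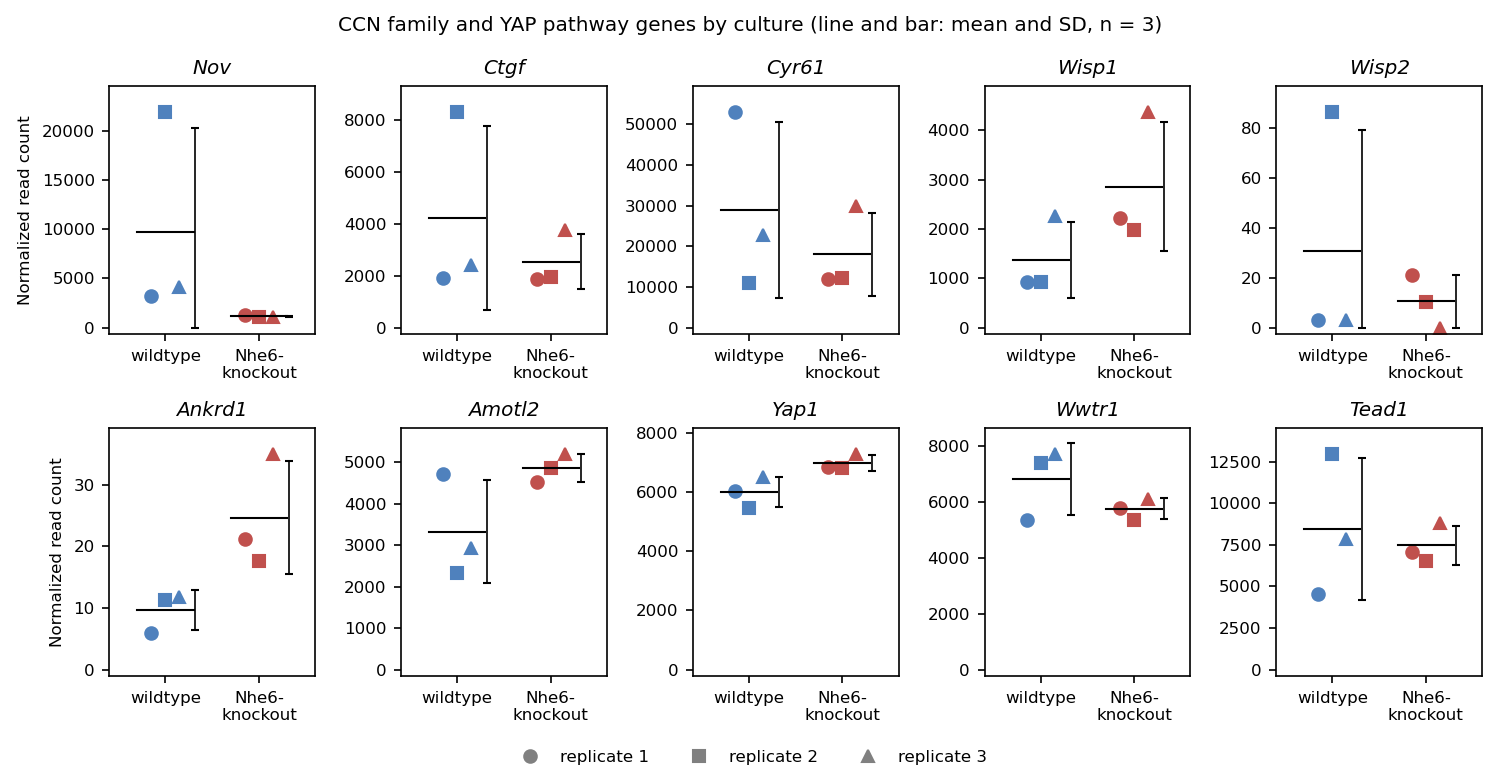
Normalized read counts (linear axes from 0, 1 panel per gene) of the 10 genes in 3 wildtype (blue) and 3 *Nhe6*-knockout (red) cultures, with symbols for the replicate number, lines for the means and bars for the SD, cut at 0. *Nov* lay at 1062 to 1228 in the *Nhe6*-knockout cultures and below every wildtype culture, and wildtype replicate 2 was the highest point for *Nov*, *Ctgf*, *Wisp2* and *Tead1*.

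Per kilobase of exon, *Cyr61* was the most abundant of the 10 genes on average, and in all libraries but wildtype replicate 2, where *Nov* was higher. *Ankrd1* and *Wisp2* were at the bottom. The mean level over the 6 libraries was 422 CPM per kilobase for *Cyr61* (196 to 953), 68.6 for *Nov*, 47.8 for *Wwtr1*, 42.8 for *Ctgf*, 25.4 for *Yap1*, 23.6 for *Amotl2*, 21.3 for *Tead1*, 13.8 for *Wisp1*, 0.391 for *Wisp2* and 0.216 for *Ankrd1*. Part of this order rested on wildtype replicate 2. Without it, a choice made after seeing the data, the mean was 26.9 for *Nov*, below *Wwtr1* (46.2) and *Ctgf* (30.3), and 0.142 for *Wisp2*, below *Ankrd1* (0.230). *Wisp1* exceeded *Wisp2* in 6 of 6 libraries. *Cyr61* exceeded *Nov*, and *Tead1* exceeded *Wisp1*, in 5 of 6. Neighbours in the middle of this order were not separated. *Nov* was above *Wwtr1* in 1 of 6 libraries, *Yap1* was above *Amotl2* in 3, and *Wwtr1* above *Ctgf*, *Ctgf* above *Yap1* and *Amotl2* above *Tead1* in 4 each. At the bottom *Wisp2* was above *Ankrd1* in 2 of 6. *Wisp3*, the remaining CCN gene, had 0 reads in all 6 libraries, which allows at most 0.116 CPM in the library where 3 reads weigh most, a limit that covers counting error only.

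Among the CCN genes, *Nov* was lower in every *Nhe6*-knockout culture than in any wildtype culture, but did not pass the test with all 6 libraries. *Nov*, also called CCN3, is a matricellular protein of endothelial and other cells that binds integrins. It lies on chromosome 15 from 54745702 to 54754039 on the plus strand, in GENCODE M21 on GRCm38. It had 1228, 1113 and 1062 normalized counts in *Nhe6*-knockout cultures 1, 2 and 3 and 3156, 21901 and 4078 in wildtype cultures. The *Nhe6*-knockout cultures lay within a narrow range, while wildtype replicate 2 was 6.05 times the mean of the other wildtype cultures. The mean was 1134 ± 85.3 (SD, n = 3) in *Nhe6*-knockout cells and 9712 ± 10566 (SD, n = 3) in wildtype cells. The log2 fold change was -3.10 (standard error 0.79, 95% interval -4.99 to -1.21), with an unadjusted p of 0.00665 and an adjusted p of 0.195 in edgeR's test. The exact permutation p of the log2 levels was 0.1, the smallest that 3 cultures against 3 allow. DESeq2's adjusted p was 0.000237. Both tests count *Nhe6*-knockout replicates 1 and 2, the most alike pair of libraries, as separate cultures. With these summed, edgeR's log2 fold change was -3.13 and its adjusted p 0.665. Without wildtype replicate 2 the log2 fold change shrank to -1.68 and edgeR's adjusted p fell to 0.0145 with the 2 wildtype cultures that were left. The study had picked *Nov* from these same libraries as one of its lower genes, so its place below the wildtype cultures is not independent evidence. Wildtype replicate 2 also held 15771 reads of *Acta2*, the smooth muscle actin gene, against 30 to 1272 in the other libraries. Of 11 mural markers, 4, *Acta2* among them, were at their highest of the 6 libraries there. As many, 4 (*Pdgfrb*, *Rgs5*, *Des* and *Abcc9*), were at their lowest. The part of these markers in the *Nov* difference was not tested.

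*Ctgf* and *Cyr61*, the classical pair of YAP-responsive CCN genes, went apart in wildtype replicates 1 and 2. *Ctgf*, a profibrotic matrix factor, lies on chromosome 10 from 24595442 to 24598683 on the plus strand. It had 1881, 1963 and 3764 normalized counts in *Nhe6*-knockout and 1919, 8299 and 2418 in wildtype cultures, and the genotypes overlapped. Its log2 fold change was -0.73 (standard error 0.61, 95% interval -2.20 to 0.73, edgeR adjusted p = 0.706). Without wildtype replicate 2 it was 0.22, so the sign of the difference rested on that library. *Cyr61*, a secreted ligand of endothelial integrins, lies on chromosome 3 from 145646976 to 145649981 on the minus strand. Its counts were 12046, 12265 and 29825 in *Nhe6*-knockout and 53013, 10891 and 22712 in wildtype cultures. The highest and the lowest of all 6 values were both wildtype, from replicates 1 and 2. Its log2 fold change was -0.68 (standard error 0.64, 95% interval -2.22 to 0.87, edgeR adjusted p = 0.746), and without wildtype replicate 1 it was 0.0989. Wildtype replicate 2, with the highest *Ctgf*, had the lowest *Cyr61*.

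*Wisp1*, which encodes the WNT-induced CCN4, was the CCN gene with a positive log2 fold change. It lies on chromosome 15 from 66891320 to 66923201 on the plus strand, on the same chromosome as *Nov*. Its counts were 2226, 1981 and 4375 in *Nhe6*-knockout and 932, 931 and 2254 in wildtype cultures. Wildtype replicate 3 lay above the 2 lower *Nhe6*-knockout cultures, so the groups overlapped. The log2 fold change was 1.06 (standard error 0.47, 95% interval -0.07 to 2.19, unadjusted p = 0.0610, adjusted p = 0.446 in edgeR's test). *Wisp2*, a CCN gene whose product lacks the carboxy-terminal domain of its relatives, lies on chromosome 2 from 163820861 to 163833146 on the plus strand and was hardly detected. It had 20, 11 and 0 reads in *Nhe6*-knockout cultures and 3, 84 and 3 reads in wildtype cultures. It reached the filter's 0.359 CPM in 2 *Nhe6*-knockout libraries and in wildtype replicate 2. Its log2 fold change of -1.56 (standard error 1.61, edgeR adjusted p = 0.772) became 1.71 without wildtype replicate 2, and no direction can be read from it.

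The make-up of the family differed from culture to culture, and *Cyr61* led it in all libraries but wildtype replicate 2. *Cyr61* made up 79.9%, 80.9% and 85.7% of the length-scaled CCN sum in *Nhe6*-knockout cultures and 93.1%, 33.4% and 80.8% in wildtype cultures. *Nov* made up 5.74%, 5.17% and 2.15% in *Nhe6*-knockout and 3.90%, 47.3% and 10.2% in wildtype cultures. In wildtype replicate 2 *Nov* was thus the leading CCN transcript, which it was in no other library. *Ctgf* took 8.81%, 9.14% and 7.63% in *Nhe6*-knockout and 2.38%, 18.0% and 6.07% in wildtype cultures. *Wisp1* took 5.36%, 4.74% and 4.56% in *Nhe6*-knockout and 0.594%, 1.04% and 2.91% in wildtype cultures. Its share was the one that did not overlap between the genotypes (exact permutation p = 0.1, the smallest possible, before any adjustment for the 5 shares compared). The sum itself was 271, 273 and 626 CPM per kilobase in *Nhe6*-knockout and 1024, 586 and 505 in wildtype cultures, and the genotypes overlapped.

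**Figure D2:**
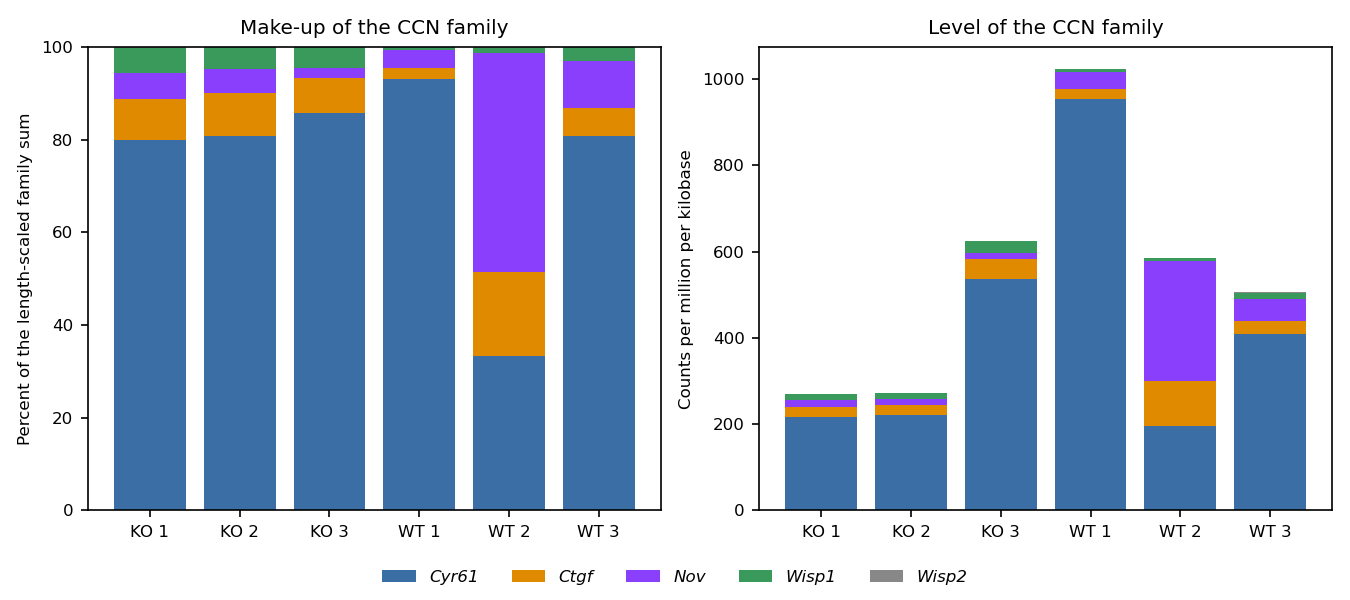
Stacked bars for the 3 *Nhe6*-knockout (KO) and 3 wildtype (WT) cultures, on the left the percent that each CCN gene held of the summed CPM per kilobase of the family and on the right the sum itself, both axes from 0. *Cyr61* filled 79.9% to 93.1% of every bar on the left except wildtype replicate 2, where it was 33.4% and *Nov* 47.3%.

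The target genes *Ankrd1* and *Amotl2* had positive log2 fold changes, and neither passed the test. *Ankrd1*, an ankyrin repeat protein of the muscle sarcomere and the nucleus that is induced by stretch and by YAP, lies on chromosome 19 from 36111961 to 36120099 on the minus strand. It had 20, 19 and 37 reads in *Nhe6*-knockout and 6, 11 and 11 reads in wildtype cultures, or 21.2, 17.7 and 35.0 against 5.87, 11.3 and 11.8 normalized counts. The groups did not overlap, and all values were low. Its log2 fold change was 1.34 (standard error 0.49, 95% interval 0.17 to 2.52), with an unadjusted p of 0.0309 and an adjusted p of 0.363 in edgeR's test. It was positive in all 13 alternatives that gave it a value, from 0.99 to 1.53, and was called in 0 of them. *Amotl2*, which encodes a junction protein that binds YAP and is also its target, lies on chromosome 9 from 102716672 to 102733418 on the plus strand. Its counts were 4517, 4874 and 5207 in *Nhe6*-knockout and 4715, 2321 and 2938 in wildtype cultures. Wildtype replicate 1 lay among the *Nhe6*-knockout values and the other wildtype cultures lay below them. Its log2 fold change was 0.55 (standard error 0.27, 95% interval -0.09 to 1.19, edgeR adjusted p = 0.482).

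The coactivator genes *Yap1* and *Wwtr1* varied least between cultures, with the smallest standard errors of the 10 genes, and neither passed the test. *Yap1* lies on chromosome 9 from 7931999 to 8004596 on the minus strand and had 6846, 6799 and 7289.7 normalized counts in *Nhe6*-knockout and 6019, 5469.9 and 6508 in wildtype cultures. The lowest *Nhe6*-knockout value lay above the highest wildtype value, by a small margin. The log2 fold change was 0.22 (standard error 0.12, edgeR adjusted p = 0.555) and its 95% interval, -0.08 to 0.52, gives the sizes these data allow. *Wwtr1*, the gene of TAZ, lies on chromosome 3 from 57455649 to 57575910 on the minus strand. It had 5804, 5371 and 6122 counts in *Nhe6*-knockout and 5359, 7399.8 and 7732 in wildtype cultures, with a log2 fold change of -0.24 (standard error 0.17, 95% interval -0.66 to 0.17, edgeR adjusted p = 0.650). The wildtype cultures held both the lowest and the highest of its values. Scaled by length, *Wwtr1* exceeded *Yap1* in 6 of 6 libraries. The ratio of *Yap1* to *Wwtr1* was 0.609, 0.653 and 0.615 in *Nhe6*-knockout and 0.580, 0.382 and 0.434 in wildtype cultures. These ratios did not overlap (exact permutation p = 0.1, the smallest possible, before adjustment). Of the 10 ratios between members computed, those of *Nov* to *Wwtr1* and of *Tead1* to *Wisp1* had the same p, and *Yap1* and *Wwtr1* were singled out after the levels were known.

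*Tead1*, the transcription factor that carries YAP and TAZ to DNA, lies on chromosome 7 from 112679318 to 112906807 on the plus strand. It had 7041, 6528 and 8806 normalized counts in *Nhe6*-knockout and 4514, 12966 and 7868 in wildtype cultures. Both the lowest and the highest value were wildtype, and the log2 fold change of -0.18 (standard error 0.37, 95% interval -1.08 to 0.72, edgeR adjusted p = 0.896) turned to 0.26 without wildtype replicate 2. Scaled by length, *Tead1* made up 51.8%, 48.1% and 53.1% of the transcripts of the TEAD genes in *Nhe6*-knockout and 38.2%, 69.8% and 56.4% in wildtype cultures. Exons of *Ctgf* and *Yap1* overlap the genes *Gm15270* and *Gm20416* on the other strand, which have no row in the table. The libraries were stranded, but the strand setting of the counting is not given in the sources used here.

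**Figure D3:**
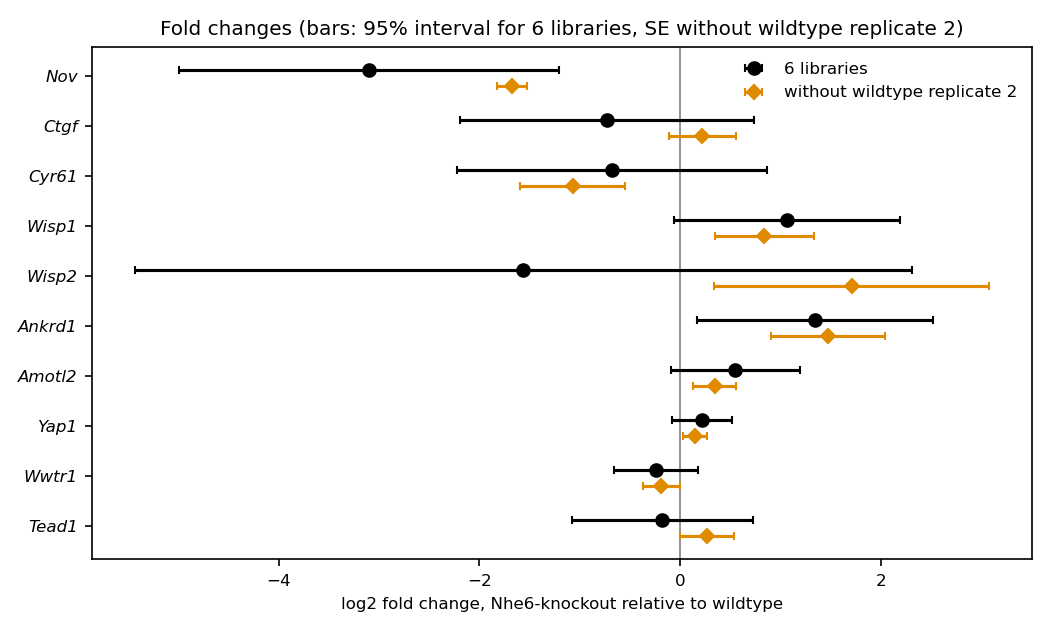
Log2 fold change of each of the 10 genes (*Nhe6*-knockout relative to wildtype, edgeR), black with its 95% interval for all 6 libraries and orange with its standard error without wildtype replicate 2. The black intervals of *Nov* and *Ankrd1* lie to one side of 0, and *Ctgf*, *Wisp2* and *Tead1* cross 0 when that library is left out.

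Upstream of YAP, 25 kinases, adaptors and scaffolds of the Hippo pathway were all tested, and 0 were called (edgeR, adjusted p). Their log2 fold changes were above 0 for 14 and below 0 for 11, with a median of 0.04 against -0.02 for all genes. An unadjusted p under 0.05 was found for 5 higher and 2 lower genes, which is 7 of 25 against 11.8%. The higher ones were *Wwc2*, *Map4k4*, *Amot*, *Amotl1* and *Ptpn14*, of which the angiomotins *Amot* and *Amotl1* and the phosphatase *Ptpn14* bind YAP directly. *Amotl1* had 12488, 11919 and 7511 normalized counts in *Nhe6*-knockout and 8017, 6428 and 6801 in wildtype cultures (log2 fold change 0.59, standard error 0.23, edgeR adjusted p = 0.387). *Amot* had 5848, 5525 and 4308 in *Nhe6*-knockout and 2993, 3668 and 4179 in wildtype cultures (log2 fold change 0.53, standard error 0.18, edgeR adjusted p = 0.331), without overlap. Among the lower ones was *Ywhaz*, a 14-3-3 protein that holds phosphorylated YAP in the cytoplasm. *Ywhaz* had 5400.4, 5006 and 5998 in *Nhe6*-knockout and 6495, 7033 and 7115 in wildtype cultures (log2 fold change -0.33, standard error 0.13, edgeR adjusted p = 0.380), without overlap. The core kinase genes *Lats1* and *Lats2* had log2 fold changes of -0.12 and 0.15, and *Stk3* and *Stk4* had -0.25 and -0.26. DESeq2 called 0 of the 25, and so did edgeR without wildtype replicate 2.

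Of the other TEAD and vestigial-like factors, 5 of 7 were tested and 0 were called. *Tead4* had 350.3, 322 and 173 normalized counts in *Nhe6*-knockout and 171, 138 and 130.5 in wildtype cultures (log2 fold change 0.94, standard error 0.31, edgeR adjusted p = 0.317). *Tead3* had 1266, 1367 and 1245 in *Nhe6*-knockout and 1148, 913 and 815 in wildtype cultures (log2 fold change 0.43, standard error 0.16, edgeR adjusted p = 0.363). For both, all *Nhe6*-knockout cultures lay above all wildtype cultures and the unadjusted p was under 0.05, which is 2 of 5 genes against 10.3% and 11.8% of all genes. *Tead2* had a log2 fold change of -0.16. *Vgll3* and *Vgll4*, cofactors that also bind TEAD proteins, had log2 fold changes of 0.30 and 0.30, and *Vgll1* had 0 reads in all libraries. DESeq2 called 0 of them.

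The list of 22 YAP and TAZ targets, which contains *Ctgf*, *Cyr61*, *Ankrd1* and *Amotl2*, was balanced between the directions. All 22 were tested, 12 had a log2 fold change above 0 and 10 below, the median was 0.05, and 0 were called. An unadjusted p under 0.05 was found for 3 higher genes, *Ankrd1*, *Ptpn14* and *Arhgef17*, and for 3 lower genes, *Fjx1*, *Gadd45a* and *Ccdc80*, which is 6 of 22 against 11.8%. *Arhgef17*, a guanine nucleotide exchange factor, had 5699.7, 6179.6 and 7700.3 normalized counts in *Nhe6*-knockout and 4957, 4632 and 4563 in wildtype cultures (log2 fold change 0.47, standard error 0.15, edgeR adjusted p = 0.300). *Ccdc80*, a secreted matrix protein, had 1605, 1659 and 3204 in *Nhe6*-knockout and 3706, 3547 and 4905 in wildtype cultures (log2 fold change -0.91, standard error 0.31, edgeR adjusted p = 0.325). *Gadd45a*, a growth arrest gene, had 143, 177 and 205 in *Nhe6*-knockout and 207, 316 and 561 in wildtype cultures. *Axl* and *Myof*, a receptor kinase and a membrane repair protein that are well expressed targets, had log2 fold changes of 0.13 and 0.09 (adjusted p = 0.803 and 0.848 in edgeR's test). Their values overlapped between the genotypes. All *Nhe6*-knockout cultures lay above all wildtype cultures for 3 of the 22 genes and below them for 3, near the 10.3% and 9.57% of all genes, and DESeq2 called 0.

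**Figure D4:**
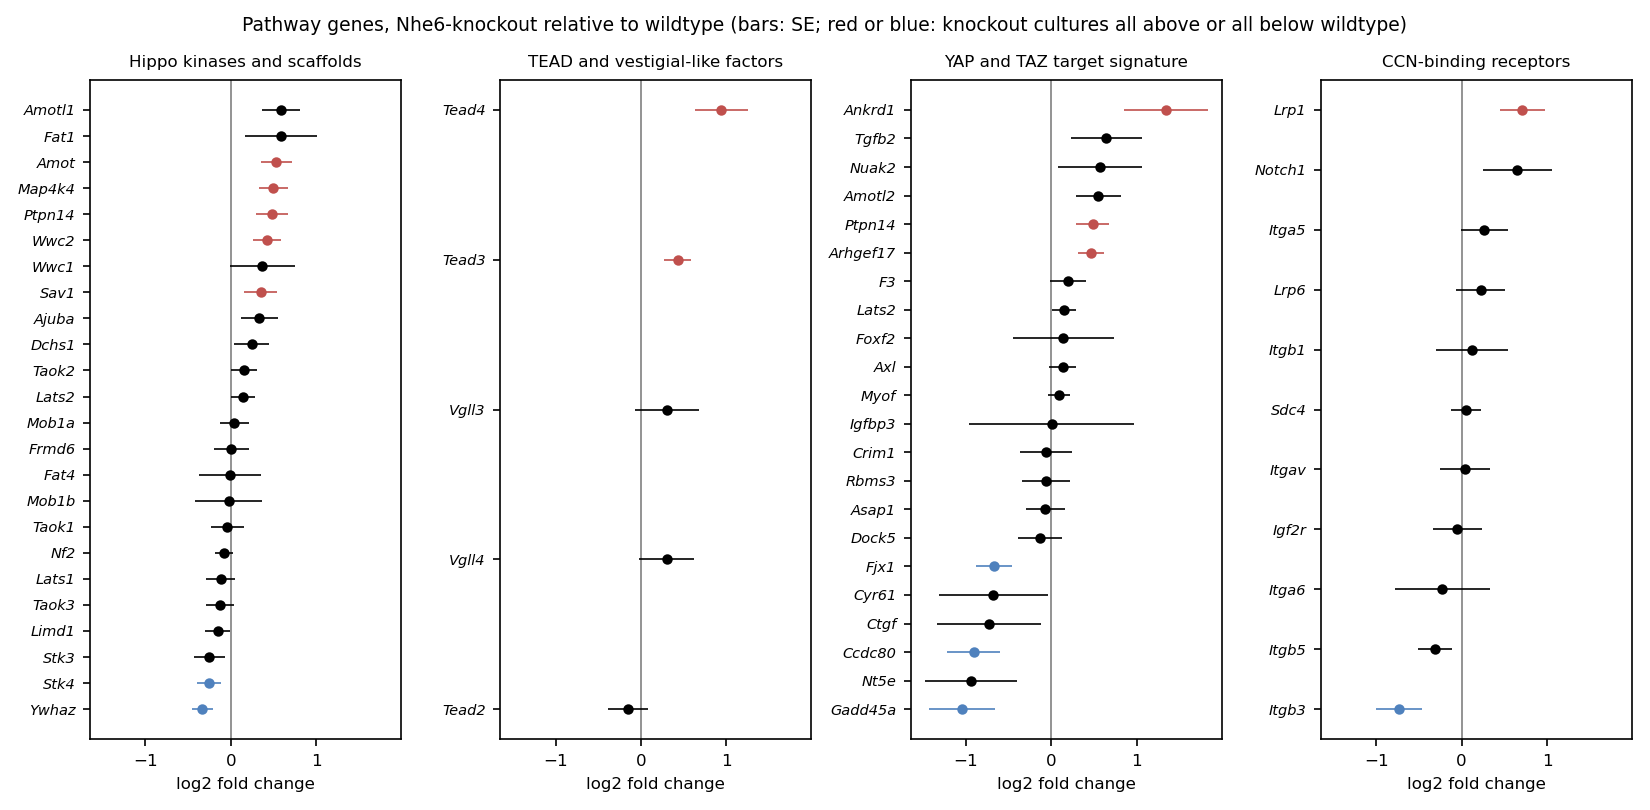
Log2 fold changes (*Nhe6*-knockout relative to wildtype, edgeR, 6 libraries) of each gene tested in 4 lists, 1 panel per list, with bars for the standard error, red where all *Nhe6*-knockout cultures lay above all wildtype cultures, blue where all lay below and black where they overlapped. The Hippo panel leaves out 1 gene of its list. Points lie on both sides of 0 in each panel, and the medians were 0.04 for the Hippo genes, 0.30 for the TEAD and vestigial-like factors, 0.05 for the targets and 0.05 for the receptors.

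Receptors that bind CCN proteins were all expressed. Of 11 tested, 7 had a log2 fold change above 0 and 4 below, with a median of 0.05, and 0 were called. An unadjusted p under 0.05 was found for 1 higher gene, *Lrp1*, and 1 lower gene, *Itgb3*, which is 2 of 11 against 11.8%. *Itgb1*, the beta chain shared by many integrins, had 94659.7, 89562 and 101123 normalized counts in *Nhe6*-knockout and 44314, 138879 and 78741 in wildtype cultures and a log2 fold change of 0.12 (standard error 0.42, edgeR adjusted p = 0.941). *Lrp1*, an endocytic receptor that takes up CTGF, had 95336, 108054 and 75699 in *Nhe6*-knockout and 63750.1, 62610.1 and 43910.3 in wildtype cultures (log2 fold change 0.71, standard error 0.26, edgeR adjusted p = 0.363), without overlap. *Itgb3*, the partner of the alpha v integrin chain, had 140.1, 182 and 201 in *Nhe6*-knockout and 294, 363 and 214 in wildtype cultures (log2 fold change -0.74, standard error 0.27, edgeR adjusted p = 0.360), also without overlap. *Notch1*, to which NOV can bind, had 955, 1153 and 1095 in *Nhe6*-knockout and 425, 1164 and 452 in wildtype cultures. Its log2 fold change was 0.65 (edgeR adjusted p = 0.600), and 1.28 (edgeR adjusted p = 0.0227) without wildtype replicate 2, so the call of *Notch1* depended on that library. DESeq2 called 0 of the 11.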

How the data were processed

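RNA of 6 cultures, 3 *Nhe6*-knockout and 3 wildtype, was measured as 1 poly(A)-enriched, stranded library each with 75-base reads. The authors deposited raw counts of reads per gene symbol, without normalization. The submitters' processing notes name STAR 2.7.7a, HTSeq 0.13.5, DESeq2 1.26.0 and the build mm10, whereas the annotation and the strand setting of the counting are not given in the sources used here. The 5 summary lines of the table, which held 21.5% to 23.6% of a library's reads, were left out. Columns were matched to cultures by genotype and replicate number in their names. Reads placed at several sites are not in the gene counts, so near-identical copies of a gene lose reads.

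Genes were filtered with filterByExpr (minimum count 10), which left 13479 of 24421, normalized by TMM and compared with edgeR 4.0.16 in R 4.3.3 (quasi-likelihood test, genotype alone). Standard errors were derived from the log2 fold change and its F statistic (the former over the root of the latter). Counting depth, 25587097 to 29126232 reads per library, makes 1 read 0.0337 to 0.0388 CPM, so counting error bears on *Wisp2* and *Ankrd1* more than on the others. The spread between cultures bears on all of them, also on *Wisp2*, with 3, 84 and 3 reads in wildtype cultures 1, 2 and 3. Single values were compared with the exact permutation test (two-sided). Levels per kilobase use exon lengths of GENCODE M21 on GRCm38, which is also the source of positions (151 of 151 listed genes matched). Promoters came from RefSeq on GRCm38.p6.

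The 10 genes and the lists were chosen with earlier results of these data known. Named genes are the 10 and *Wisp3*, genes of the lists, and the 5 genes most like *Nov*, *Ctgf* and *Ankrd1*. Some genes that this rule names, and the level of the disrupted gene, are not reported here. The alternatives tried were upper-quartile scaling or DESeq2's size factors within edgeR, a looser filter (1 count in all) and a stricter one (10 counts in each library), DESeq2 1.42.0, limma-voom (limma 3.58.1), a replicate block, each library left out, and *Nhe6*-knockout replicates 1 and 2 summed. The code was tested on simulated data.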

Additional observations from a re-analysis of the deposited data

How the results depend on the processing

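The 4 count results and the 10 log2 fold changes were recomputed under 14 alternatives. Over all genes, 9 were called by edgeR, 21 with no filter beyond 1 count, 21 with at least 10 counts in every library, 593 with DESeq2, 1 with *Nhe6*-knockout replicates 1 and 2 summed, and 0 to 395 when 1 library was left out, the 395 without wildtype replicate 2. Of the 10 genes, 1 (*Nov*) was called with DESeq2 and 1 (*Nov*) without wildtype replicate 2, and 0 to 1 across the libraries left out. The log2 fold change changed sign for *Ctgf* (-1.14 to 0.22), *Wisp2* (-2.57 to 1.71) and *Tead1* (-0.49 to 0.26) without wildtype replicate 2, and for *Cyr61* (-1.26 to 0.0989) without wildtype replicate 1. The cause was not tested. The log2 fold change of *Nov* was below 0 in all 14, from -3.52 to -1.68, with the smaller size without wildtype replicate 2, and its adjusted p ranged from 0.000237 to 0.665. The other 132 log2 fold changes kept direction and side of the threshold, and 0 Hippo genes and 0 targets were called in each alternative. *Wisp2* and *Ankrd1* had no value with at least 10 counts in every library. With a replicate block 2 genes were called, none of the 10. The block was not used because same-numbered cultures did not deviate together, with correlations of 0.240, -0.145 and 0.156 for replicates 1, 2 and 3. With 3 cultures a genotype, the 95% intervals give the sizes of difference these data allow.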

Other observations

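*Nhe6*-knockout replicate 3 held 1.96 times the mean of replicates 1 and 2 for *Ctgf*, 2.45 times for *Cyr61*, 2.08 times for *Wisp1* and 1.80 times for *Ankrd1*, but 0.907 times for *Nov*, and had 0 reads of *Wisp2* against 20 and 11. Of the 10 genes, 4 were at least 1.5 times higher there, against 8.60% of all genes tested. In wildtype replicate 2, 3 of the 10 genes, *Nov*, *Ctgf* and *Wisp2*, were at least 3 times the mean of replicates 1 and 3, against 4.31% of all genes, and 7 of the 10 were at least 1.5 times higher or lower than that mean, against 35.6% of all genes. There *Cyr61* was at 0.288 times, *Wisp1* at 0.585 times and *Amotl2* at 0.606 times that mean. These ratios were looked at after the values were known and were not tested. Some mural genes were also high in both libraries, while the mural markers *Des* and *Abcc9* were the lowest of their genotype in each. *Acta2*, the smooth muscle actin gene, had 264, 402 and 1272 reads in *Nhe6*-knockout and 30, 15771 and 66 reads in wildtype cultures 1, 2 and 3. *Tagln*, a smooth muscle actin-binding protein gene that is also induced by stretch, had 257, 331 and 890 reads in *Nhe6*-knockout and 76, 5174 and 327 in wildtype cultures. Their part in the levels of the CCN genes was not tested.

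Among genes with 100 or more normalized counts on average, those whose log2 levels over the 6 libraries correlated most closely with those of *Nov* included *Ubqln1*, *Pomk*, *Esd* and *Sri*. *Sri* had 4032, 3891 and 4057 normalized counts in *Nhe6*-knockout and 4709.6, 6216 and 5041 in wildtype cultures. Most like *Ctgf* were *Tpgs2*, *Pmpca*, *Slc35d2*, *Man1b1* and *Plxdc2*. *Plxdc2*, a plexin domain gene, had 4022, 4187 and 7992 counts in *Nhe6*-knockout and 3740, 18967 and 5905 in wildtype cultures, the same order of cultures as *Ctgf* apart from the lowest pair. Most like *Ankrd1* were *Fam3c*, *Ptprt*, *Zc3hc1*, *Dock1* and *Nono*. *Ptprt* had 347, 304 and 788 counts in *Nhe6*-knockout and 89.0, 152 and 151 in wildtype cultures. The likeness was Pearson's r, at least 0.984 for each of these genes, the highest found in a search of 11126 or 11127 genes, and it describes these libraries only. It takes no account of the level or of the size of a change. *Ubqln1* ran from 4124 to 5389 normalized counts, and *Nov* from 1062 to 21901.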
